A study of Mus musculus with 2 samples.

Results

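The E2F transcription factors and their DP dimerisation partners were examined in the mouse erythroleukemia line MEL, an established line of red cell precursors from a leukemia. The 10 members are the genes E2f1 to E2f8, Tfdp1 and Tfdp2, chosen by gene symbol, with earlier results of these data known, out of 43346 genes measured, 21474 of them protein-coding. The study holds 1 group of 2 samples, labelled as biological replicates 1 and 2 of this immortalized leukemia line. The labels give no treatment, genotype or time, list age as unknown and sex as not collected, and do not say whether the replicates came from separate cultures. Polyadenylated RNA was sequenced from one end, and the authors' values are TPM, a transcript level scaled by length and library, and expected counts, which are estimated reads per gene.

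E2F factors bind the promoters of genes needed for DNA replication and cell division, most of them as dimers with a DP protein. In quiescent cells the retinoblastoma family of pocket proteins holds them in check, and cyclin-dependent kinases release them by phosphorylating the pocket proteins. E2F1, E2F2 and E2F3 are classed as activators and E2F4 to E2F8 as repressors, of which E2F6 acts without pocket proteins and E2F7 and E2F8 bind DNA without a DP partner. In red cell precursors of the mouse, E2F2 and E2F4 are known for their part in the divisions and the cell cycle exit that accompany maturation.

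Summed over genes, expected counts came to 67735380 in replicate 1 and 79923143 in replicate 2, and the members took between 489 and 26606 of them in a replicate. For a gene with 0 counts the share compatible with that depth is at most 4.43e-06% in replicate 1 and 3.75e-06% in replicate 2, a limit of 3 counts that covers counting error only. Of 13 erythroid marker genes 12 reached 10 TPM in both replicates, where 31.4% of protein-coding genes did. Slc4a1, the anion exchanger of mature red cells, was the exception at 0.48 and 0.26 TPM. The 13 summed to 5120 TPM in replicate 1 and 6973 TPM in replicate 2. Most of that sum was Car1 alone, at 3756.9 and 4820.5 TPM, and the median marker stood at 113.5 and 198.2 TPM. None of 8 myeloid, 6 lymphoid and 8 fibroblast, endothelial and epithelial markers reached 1 TPM in both replicates, where 46.8% of protein-coding genes did. Their summed levels in replicates 1 and 2 were 0.21 and 0.40 TPM for the myeloid list, 0.11 and 0.50 TPM for the lymphoid list and 0.48 and 0.60 TPM for the third, and 3, 1 and 2 of their genes had no counts at all.

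Promoter sequence is shown for the members whose start regions carry the letters of an E2F site. RefSeq windows on build GRCm38.p6, from 250 bases before to 50 bases after a gene's start, were at hand for 8 of the 10 members as 12 windows. The E2F letters searched were TTTNNCGC on both strands, and they were found in 5 windows of 4 members, E2f2, E2f3, E2f7 and Tfdp1. Of all 32851 windows of the same length 5.17% held them. The 5 windows include a pair from Tfdp1 that overlap and share 1 match, so 1 of that pair is printed. The inner E2f3 window, without a match, stands beside the outer one because a short E2f3 transcript was measured that begins 150 bases downstream of the inner start, outside this window. In the sequences below, written from 5′ to 3′ along each gene's strand, capitals mark the E2F letters.
E2f2, chr4:136172024-136172323, plus strand: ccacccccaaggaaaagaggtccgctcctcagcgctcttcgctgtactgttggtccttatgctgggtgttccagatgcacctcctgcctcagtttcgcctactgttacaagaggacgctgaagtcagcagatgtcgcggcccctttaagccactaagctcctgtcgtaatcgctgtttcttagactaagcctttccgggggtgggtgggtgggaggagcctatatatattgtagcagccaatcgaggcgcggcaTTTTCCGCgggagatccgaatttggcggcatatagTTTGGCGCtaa
E2f3 outer start, chr13:29986014-29986313, minus strand: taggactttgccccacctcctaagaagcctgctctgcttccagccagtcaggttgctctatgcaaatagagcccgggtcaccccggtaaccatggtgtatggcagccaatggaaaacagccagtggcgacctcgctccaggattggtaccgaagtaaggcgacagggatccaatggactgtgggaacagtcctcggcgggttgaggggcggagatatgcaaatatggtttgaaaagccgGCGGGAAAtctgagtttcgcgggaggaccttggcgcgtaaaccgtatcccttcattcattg
E2f3 inner start, chr13:29984342-29984641, minus strand: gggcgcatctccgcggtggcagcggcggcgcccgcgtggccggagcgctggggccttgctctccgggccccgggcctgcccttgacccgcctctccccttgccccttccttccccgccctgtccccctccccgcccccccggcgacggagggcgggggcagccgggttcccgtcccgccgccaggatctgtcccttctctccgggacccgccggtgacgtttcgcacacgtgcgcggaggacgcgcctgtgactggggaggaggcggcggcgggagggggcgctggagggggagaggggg
E2f7, chr10:110745189-110745488, plus strand: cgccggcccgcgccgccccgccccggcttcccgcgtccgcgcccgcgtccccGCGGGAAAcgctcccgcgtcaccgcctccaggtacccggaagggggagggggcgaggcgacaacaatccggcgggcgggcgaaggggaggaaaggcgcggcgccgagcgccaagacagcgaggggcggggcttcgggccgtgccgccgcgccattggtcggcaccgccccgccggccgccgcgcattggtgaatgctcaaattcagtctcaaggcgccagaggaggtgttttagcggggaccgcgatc
Tfdp1, chr8:13338501-13338800, plus strand: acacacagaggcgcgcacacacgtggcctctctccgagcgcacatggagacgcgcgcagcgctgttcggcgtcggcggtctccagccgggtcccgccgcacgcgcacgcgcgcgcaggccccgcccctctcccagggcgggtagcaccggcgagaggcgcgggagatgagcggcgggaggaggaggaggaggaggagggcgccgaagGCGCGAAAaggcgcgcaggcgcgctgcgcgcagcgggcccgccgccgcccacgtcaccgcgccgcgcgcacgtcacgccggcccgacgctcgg

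The E2f2 window held 2 matches, which began 4 and 39 bases after the RefSeq start. The measured coding E2f2 transcript begins 120 bases downstream of that start, outside the window, so both matches lie upstream of it. At the outer E2f3 start the match began 11 bases before the start site, and the letters TTTGAA of the cell cycle genes homology region (CHR), a site of MuvB complexes, began 23 bases before it. The matches of Tfdp1 and E2f7 lay farther out, 43 and 198 bases before the RefSeq start. The single measured Tfdp1 transcript begins at chr8:13339674, downstream of the printed window, so that window does not cover its start. The E2f1 window held no match. The E2f1 transcripts that were quantified have annotated starts 466 and 294 bases upstream of its RefSeq start, and the window does not cover these. Which start is in use in MEL cells was not measured. Of the 12 windows 3 held the CHR letters, against 17.9% of all windows. The letters CCAAT of the factor NF-Y stood in 5 of the 12, against 37.4%, and GGGCGG of the SP factors in 8 of the 12, against 35.7%. AGATAA, letters bound by GATA factors, stood in 0 of the 12 and in 11.2% of all windows. Each motif was searched on both strands, and the letters of different motifs did not overlap in the members' windows. A match of letters is a description of the window and no evidence of binding.

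All 10 members were present in MEL cells, at 1 TPM or more in both replicates, where 46.8% of protein-coding genes reached that level. The median member stood at 20.4 TPM in replicate 1 and 28.1 TPM in replicate 2, against 22.3 and 22.2 TPM for the 10045 protein-coding genes at 1 TPM or more in both. Of the 10 members 9, all but E2f5, reached 10 TPM in both replicates, and Tfdp1 and E2f4 passed 100 TPM in both. These are levels in bulk RNA, in which fewer cells with a transcript and less of it per cell cannot be told apart. With 1 group and 2 replicates no test between conditions was possible, and an exact sign-flip test over 2 replicates cannot go below p = 0.5, so levels and ratios are given with their spread and without p-values.

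**Figure D1:**
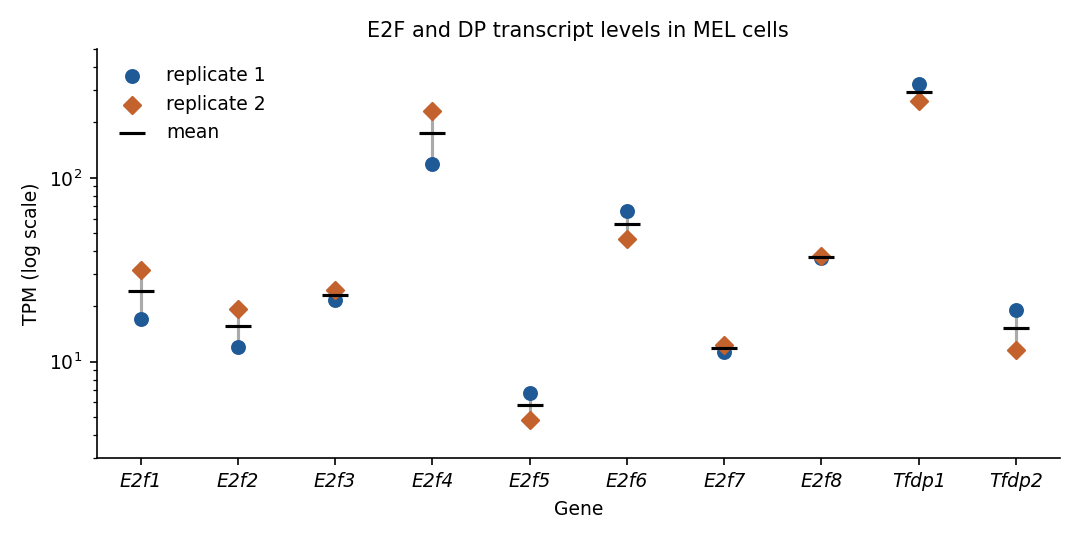
Levels of the 10 members in TPM on a log axis, with replicate 1 as circles, replicate 2 as diamonds and their mean as a bar. Tfdp1 at 262 to 322 TPM and E2f4 at 119 to 232 TPM lie above all other members, and E2f5 at 4.79 to 6.79 TPM lies below them.

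Among the activators, E2f1, the first cloned of the family and also an inducer of apoptosis genes, lies at chr2:154559407-154569892 on the minus strand. It had 17.1 TPM in replicate 1 and 31.5 TPM in replicate 2, a mean of 24.3 ± 10.2 TPM (SD, n = 2), from 2119 and 4992 expected counts. E2f2, at chr4:136172394-136196057 on the plus strand, had 12.1 and 19.3 TPM in replicates 1 and 2 (15.7 ± 5.10 TPM, SD, n = 2), from 2611 and 4927 counts. Both were higher in replicate 2, and each replicate held more E2f1 than E2f2 by TPM. E2f3, the activator with an outer and an inner promoter in the mouse, lies at chr13:29906575-29986063 on the minus strand and had 21.7 and 24.6 TPM (23.1 ± 2.03 TPM, SD, n = 2) in replicates 1 and 2. The order of E2f1 and E2f3 was not the same in both replicates.

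E2f4, the main partner of the pocket proteins p107 and p130 and the best known repressor of the family, was the highest of the E2F genes in both replicates. It lies at chr8:105297663-105305370 on the plus strand and had 119 TPM in replicate 1 and 232 TPM in replicate 2 (175 ± 80.2 TPM, SD, n = 2), from 10641 and 26606 counts. That level lay above 94.4% of protein-coding genes in replicate 1 and above 97.3% in replicate 2. E2f5, its closest relative, lies at chr3:14578641-14606309 on the plus strand and was the lowest member, with 6.79 and 4.79 TPM (5.79 ± 1.41 TPM, SD, n = 2) from 543 and 489 counts. E2f5 shares 26 exon bases with 1810022K09Rik on the opposite strand, a gene at 394 and 113 TPM, and since the use of strand in counting is not given, reads of those bases cannot be told apart.

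E2f6, the repressor that works in a Polycomb complex and silences germ line genes in somatic cells, came next after E2f4. It lies at chr12:16810963-16839742 on the plus strand and had 66.4 TPM in replicate 1 and 46.4 TPM in replicate 2 (56.4 ± 14.1 TPM, SD, n = 2), from 7268 and 6486 counts. The atypical factors E2f7 and E2f8 carry a pair of DNA-binding domains each and repress E2F targets late in S phase. E2f7, at chr10:110745439-110787384 on the plus strand, had 11.3 and 12.4 TPM in replicates 1 and 2 (11.8 ± 0.792 TPM, SD, n = 2). E2f8, at chr7:48866429-48881596 on the minus strand, had 36.7 and 37.5 TPM (37.1 ± 0.509 TPM, SD, n = 2). They were the members with the closest replicate values, and E2f8 was the higher of them in both. E2f8 shares 610 exon bases with Gm2788 on the opposite strand, which had 23.9 and 42.0 counts against 5558 and 7749 for E2f8, and E2f7 shares 86 with 1700020G17Rik, which had none.

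The DP genes differed more from each other than the activators did. Tfdp1, which encodes DP1, the usual dimerisation partner of the E2F proteins, lies at chr8:13338751-13378448 on the plus strand and was the highest member at 322 TPM in replicate 1 and 262 TPM in replicate 2 (292 ± 42.5 TPM, SD, n = 2), from 24590 and 25556 counts. Tfdp2, which encodes DP2 and lies at chr9:96196275-96323646 on the plus strand, had 19.0 and 11.6 TPM in replicates 1 and 2 (15.3 ± 5.27 TPM, SD, n = 2). Both DP genes were higher in replicate 1 by TPM, while E2f4 stood closer to Tfdp1 in replicate 2, where Tfdp1 was 1.13-fold higher, against 2.72-fold in replicate 1.

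By mean TPM the order ran Tfdp1, E2f4, E2f6, E2f8, E2f1, E2f3, E2f2, Tfdp2, E2f7 and E2f5. Of its 9 neighbouring pairs 6 had replicate values that did not overlap. The other 3 overlapped, and so E2f1 and E2f3 did not differ beyond their spread, nor did E2f2 and Tfdp2, nor Tfdp2 and E2f7. Over coding transcripts alone E2f3 had 19.0 and 14.1 TPM in replicates 1 and 2, and E2f2 had 12.1 and 17.7 TPM. These values overlapped, so the step from E2f3 to E2f2 depended on the transcripts counted. The widest step lay between E2f4 and E2f6, 3.11-fold in mean TPM, and the step between E2f7 and E2f5 was 2.04-fold. The posterior SD of a member's count, the uncertainty of assigning its reads within a library, was at most 1.22 reads, which is small beside counts of 489 or more. The deposited TPM lay above the credibility interval of its own library for 3 members in replicate 1 and 2 in replicate 2, as for E2f4, whose interval was 113 to 118 TPM in replicate 1 and 224 to 230 TPM in replicate 2.

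Repressor transcripts outweighed activator transcripts in both replicates. E2f1, E2f2 and E2f3 summed to 50.9 TPM and E2f4 to E2f8 to 240 TPM in replicate 1, and to 75.4 TPM and 333 TPM in replicate 2. The log2 ratio of activators over repressors, with 0.1 TPM added to both sums, was -2.23 and -2.14 in replicates 1 and 2 (-2.19 ± 0.07, SD, n = 2), so repressors stood 4.56-fold above activators. Activators made up 17.5% and 18.5% of the summed TPM of E2f1 to E2f8 in replicates 1 and 2 (18.0% ± 0.672, SD, n = 2). E2f4 and E2f5 took 43.1% and 58.0% (50.6% ± 10.5, SD, n = 2), E2f6 took 22.8% and 11.4%, and E2f7 and E2f8 took 16.5% and 12.2%. The share of E2f4 and E2f5 was higher in replicate 2 and that of E2f6 was higher in replicate 1, so that the share of activators stayed close while those within the repressors did not.

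**Figure D2:**
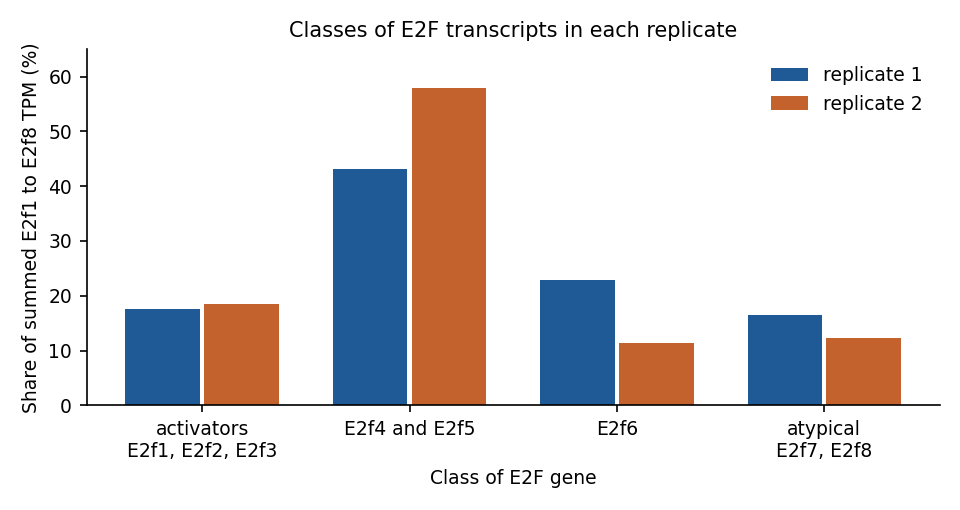
Share of the summed TPM of E2f1 to E2f8 taken by each class of E2F gene, in percent, with a bar for each replicate. The activators take 17.5% and 18.5%, while E2f4 and E2f5 take 43.1% in replicate 1 and 58.0% in replicate 2.

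E2f4 was the largest part of the repressor sum. It alone held 40.8% of the E2F TPM in replicate 1 and 56.8% in replicate 2. Activators over E2f4 and E2f5 gave log2 ratios of -1.30 and -1.65 in replicates 1 and 2 (-1.48 ± 0.25, SD, n = 2). Against E2f7 and E2f8 alone the log2 ratio was 0.08 and 0.60 (0.34 ± 0.36, SD, n = 2), a mean smaller than its SD, and against E2f6 alone the sign was not the same in both replicates, at -0.38 and 0.70. With E2f4 left out, an alternative chosen after its level was seen, the remaining repressors were the larger sum in both replicates, by log2 1.25 in replicate 1 and 0.42 in replicate 2, a mean inside the limit of 1.30 described for pairs.

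The summed DP transcripts and those of their E2F partners did not keep the same order in both replicates. Tfdp1 and Tfdp2 summed to 341 TPM in replicate 1 and 274 TPM in replicate 2, and E2f1 to E2f6, whose proteins bind DNA with a DP partner, to 243 and 359 TPM. The log2 ratio of DP over E2F was 0.49 in replicate 1 and -0.39 in replicate 2 (0.05 ± 0.62, SD, n = 2). DP was thus the larger sum in replicate 1 and the smaller in replicate 2, and the data do not place one above the other.

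A set of 10 pairs of members was read against a common limit of 1.30 on the log2 scale, or 2.45-fold. This is the 95th percentile of the absolute log2 TPM ratio between the replicates over 10045 protein-coding genes, a yardstick and not a test. Of the 10 pairs 7 stood apart, with the same sign in both replicates and a mean ratio beyond the limit. The limit describes the spread of a gene between replicates, not how far levels of different genes lie apart. The share of pairs of other genes beyond it was not determined, so the count of 7 describes these pairs only. E2f4 over E2f5 was the widest, with log2 ratios of 4.11 and 5.57 in replicates 1 and 2 (4.84 ± 1.03, SD, n = 2), a 28.6-fold excess. Tfdp1 over Tfdp2 followed at 4.07 and 4.49 (4.28 ± 0.29, SD, n = 2), or 19.4-fold. E2f1 over E2f4 was -2.79 and -2.88, and E2f2 over E2f4 was -3.29 and -3.58, so these pairs kept a small spread. The TPM of E2f4 was 1.96-fold higher in replicate 2 than in replicate 1, and E2f1 and E2f2 were higher there too. The GC content of E2f1 and E2f2 was 2.23 and 0.456 percentage points above that of E2f4. E2f4 lay 9.33 points above E2f5, 6.86 above E2f6 and 5.97 above E2f8. These pairs had the largest SDs, 1.03, 1.05 and 0.66. Whether GC content has a part in the spread of the pairs was not tested.

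E2f7 over E2f8 was -1.70 in replicate 1 and -1.59 in replicate 2 (-1.64 ± 0.08, SD, n = 2), an E2f8 level 3.12-fold that of E2f7. E2f4 over E2f8 was 1.69 and 2.63 (2.16 ± 0.66, SD, n = 2). E2f4 over E2f6 was 0.84 and 2.32 (1.58 ± 1.05, SD, n = 2), and in replicate 1 alone it lay inside the limit. The activators did not stand apart from each other. E2f1 over E2f2 was 0.50 and 0.71, E2f2 over E2f3 was -0.84 and -0.35, and E2f1 over E2f3 was -0.34 and 0.36, the only pair of the 10 whose sign changed between replicates.

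**Figure D3:**
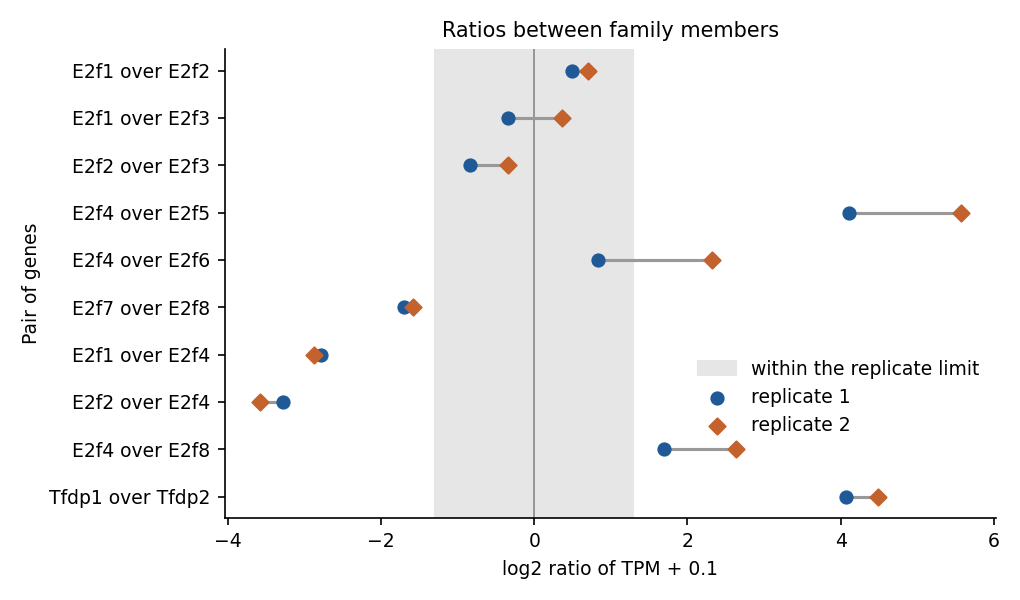
Log2 ratio of TPM with 0.1 added for 10 pairs of members, with replicate 1 as circles, replicate 2 as diamonds and the replicate limit of 1.30 either way as a grey band. The pairs among E2f1, E2f2 and E2f3 lie inside the band and both replicates of E2f4 over E2f5 and of Tfdp1 over Tfdp2 lie far outside it.

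Most members were carried by 1 transcript, and the same transcript led in both replicates for all 10. E2f4, E2f6 and Tfdp1 had a single transcript in GENCODE M4, the annotation used for quantification. The gene spans printed here for E2f6 and Tfdp1, from the later M21, reach past that transcript, so other transcripts of these genes were not measured apart. The E2f1 transcript that begins farther upstream took 82.0% of the E2f1 TPM in replicate 1 and 85.1% in replicate 2. The coding transcript of E2f2 took 100% and 91.8% of its TPM, the rest in replicate 2 being a processed transcript of 426 nucleotides with 35.6 counts that begins 1 base from the inner RefSeq start. The leading E2f7 transcript took 78.7% and 76.3% of the gene among 9 annotated transcripts. E2f8 was divided between a coding transcript from the RefSeq start, at 56.2% and 52.2%, and another coding transcript that begins 555 bases downstream, at 35.0% and 46.6%.

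E2f3 differed most between replicates in its transcripts. The coding transcript, which begins at the outer start printed above, had 19.0 TPM in replicate 1 and 14.1 TPM in replicate 2. A processed transcript of 216 nucleotides that begins 150 bases downstream of the inner RefSeq start had 2.72 and 10.5 TPM. It thus took 12.5% and 42.7% of the gene's TPM, on 21.6 and 106 counts, which were 0.526% and 2.68% of the gene's counts. The higher TPM of E2f3 in replicate 2 came with this short transcript, and over the coding transcript alone the log2 TPM ratio of replicate 2 over replicate 1 was -0.43, against 0.18 over both. Since the annotation used holds 1 coding transcript for E2f3, products of the outer and the inner promoter cannot be told apart here.

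Tfdp2 was spread over 16 annotated transcripts, 13 of them coding. The leading transcript held 40.2% of the gene's TPM in replicate 1 and 52.7% in replicate 2. By start site, 7 transcripts from the upstream region held 73.3% and 69.9% of the Tfdp2 TPM, 6 from a middle region 22.3% and 13.5%, and 3 from a downstream region 4.41% and 16.7%. Most of the downstream share was a transcript of 550 nucleotides, at 3.99% and 16.2% of the Tfdp2 TPM in replicates 1 and 2. It rested on 17.7 and 56.1 counts, against 3406 and 3057 for the gene, so these shares do not show a shift of start use. Transcripts annotated from the upstream region held most of the Tfdp2 TPM in both replicates, and start sites themselves were not measured. The RefSeq windows of Tfdp2 lie in the middle region, and neither held the E2F letters.

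Between the replicates, 0 of the 10 members differed by 2-fold or more in scaled expected counts, where 20.4% of the 15251 genes tested did. Among protein-coding genes at 10 TPM or more in both replicates the share was 12.2%. The median size of the log2 ratio was 0.51 over the members and 0.59 over all genes tested. Over protein-coding genes at 10 TPM or more in both replicates it was 0.52, close to that of the members. E2f4 came closest to the limit, with a log2 ratio of replicate 2 over replicate 1 of 0.96, and it reached 1.00 with DESeq2 size factors and 1.08 with library totals. E2f1 followed at 0.88 and E2f2 at 0.56, while E2f6 and Tfdp2 at -0.52 and E2f5 at -0.51 lay at the other end. E2f3 stood at -0.41 in counts, against 0.18 by TPM. E2f8 at 0.12 and E2f7 at 0.05 were closest to no difference.

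The replicate ratio moved with GC content over all genes. In 20 bins of genes by the GC content of their longest transcript, the median log2 ratio of replicate 2 over replicate 1 ran from -1.19 in the lowest bin to 0.85 in the highest. The members spanned 45.5% GC, for Tfdp2, to 58.3% GC, for E2f1, and the ratio of 9 of the 10 had the same sign as the median of its bin. E2f1, E2f4 and E2f2, at 58.3%, 56.1% and 56.6% GC, were the members higher in replicate 2 by more than 0.5 on the log2 scale. With the median of the bin subtracted, a step chosen after the trend was seen, the members' ratios ran from -0.47 for E2f6 to 0.32 for E2f4, with a median size of 0.12. E2f1 then stood at 0.09, E2f2 at -0.15 and E2f3 at -0.35.

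**Figure D4:**
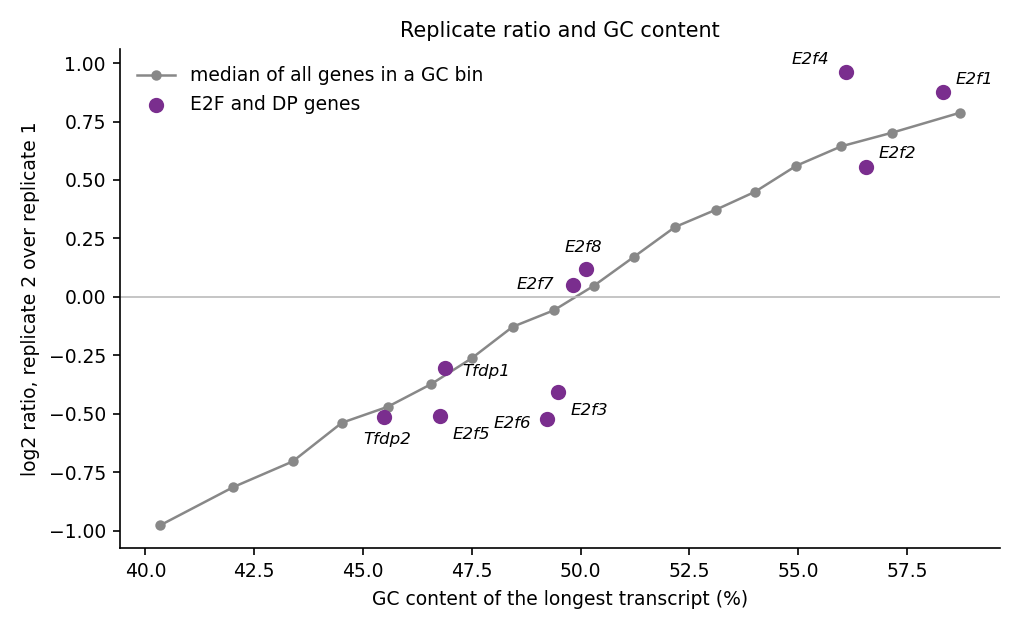
Log2 ratio of scaled counts, replicate 2 over replicate 1, against the GC content of the longest transcript in percent, for the 10 members as large points and for the medians of all genes in GC bins as a grey line, the lowest and the highest of the 20 bins left out. E2f1 at 0.88 and E2f2 at 0.56 lie close to the line, E2f4 at 0.96 above it, and E2f3 at -0.41 and E2f6 at -0.52 below it.

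Transcripts of most genes whose products control the E2F factors were detected. All 3 pocket protein genes reached 1 TPM in both replicates, where 46.8% of protein-coding genes did, with a median of 18.1 TPM. Rbl1, which encodes p107, had 28.5 and 13.7 TPM in replicates 1 and 2, Rb1, the retinoblastoma gene, 26.2 and 9.98 TPM, and Rbl2, which encodes p130, 6.25 and 6.34 TPM. In scaled counts Rb1 was the 1 pocket protein gene past 2-fold between replicates, where 20.4% of all genes tested were past 2-fold. Its log2 ratio was -1.21 with 41.2% GC, in a bin whose median was -0.98. Rbl1, whose TPM also differed widely, stood at -0.95 in scaled counts. Of 9 kinase and cyclin genes acting on pocket proteins 8 reached 1 TPM, against the same 46.8%, with a median of 62.7 TPM over the 9. Cdk4, the kinase of D-type cyclins, had 922 and 994 TPM in replicates 1 and 2, Ccnd3 had 185 and 428 TPM, and Ccna2, the S phase cyclin, had 167 and 132 TPM. By mean TPM the lowest were Cdk6, the other kinase of D-type cyclins, at 55.7 and 35.3 TPM, close to Cdk2 at 40.9 and 50.3 TPM, and Ccnd1, encoding cyclin D1, at 0.28 and 0.27 TPM. Ccnd3 was thus far above Ccnd1 in both replicates. Of the 9 genes 1 was past 2-fold in scaled counts, against the same 20.4% of all genes tested. This was Ccne2, named after its values were seen, with a log2 ratio of -1.40 at 36.3% GC, in a bin whose median was -1.19. Ccnd3 stood at 0.82 in scaled counts.

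Partners of the repressors were also measured, where 46.8% of all protein-coding genes reached 1 TPM in both replicates. All 6 genes of the MuvB complex and B-Myb, which join E2F4 or follow it on cell cycle promoters, reached 1 TPM, with a median of 24.9 TPM. None was past 2-fold in scaled counts, where 20.4% of all genes tested were. Rbbp4, a histone-binding subunit, had 211 and 95.8 TPM in replicates 1 and 2, but a log2 ratio of -0.51 in scaled counts. Mybl2, encoding B-Myb, had 93.8 and 112 TPM, and Lin37 30.8 and 38.1 TPM. Lin9 had 16.1 and 8.48 TPM and Lin52 7.42 and 5.49 TPM. For the PRC1.6 complex, the Polycomb complex of E2F6, 9 of 10 genes reached 1 TPM, with a median of 38.2 TPM over the 10, and 2 were past 2-fold higher and 3 past 2-fold lower in replicate 2, where 20.4% of all genes tested were past 2-fold. Cbx3, encoding a heterochromatin protein, had 312 and 134 TPM in replicates 1 and 2, Max, a partner of MGA, 117 and 98.4 TPM, and Wdr5 63.1 and 73.4 TPM. The lowest were Ring1, a ubiquitin ligase subunit, at 10.5 and 21.7 TPM and Rybp at 0.03 and 0.22 TPM. Rybp was the single gene of this list under 1 TPM. Ring1 at a log2 ratio of 1.01, with 56.9% GC, and Rybp at 2.81, with 43.6% GC in a bin whose median was -0.70, were the genes higher in replicate 2. Rybp rested on 6.09 counts in replicate 1 and 58.1 in replicate 2. The lower ones were Cbx3 at -1.19, with 38.7% GC, and, named after their values were seen, Rnf2 at -1.12, with 39.5% GC, and Mga at -1.01, with 42.2% GC. The TPM of Mga, 34.8 in replicate 1 and 45.3 in replicate 2, ran the other way from its counts.

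Of the ubiquitin ligase subunits that act on E2F proteins all 3 reached 1 TPM in both replicates. Among protein-coding genes 46.8% did so. The median of the 3 was 58.0 TPM. Fzr1, an activator of the anaphase-promoting complex, had 33.0 and 85.0 TPM in replicates 1 and 2, a log2 ratio of 1.19 in scaled counts with 59.9% GC, in a bin whose median was 0.85. Ccnf, encoding cyclin F, had 46.8 and 69.2 TPM, and Skp2, an F-box protein, 50.7 and 46.5 TPM. Mcidas and Gmnc, which work with E2F4 and E2F5 in multiciliated cells, had 0 counts in both replicates.

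The genes that E2F factors are known to act on fell into groups of unlike level. All 40 targets of G1 and S phase reached 1 TPM in both replicates, where 46.8% of protein-coding genes did. Their median was 97.1 TPM, against 0.49 TPM over all protein-coding genes and 23.0 TPM over those at 1 TPM or more. Pcna, the sliding clamp of DNA replication, had 518 and 410 TPM in replicates 1 and 2, Dnmt1, the maintenance DNA methyltransferase, 419 and 502 TPM, and Mcm6, of the replicative helicase, 307 and 177 TPM. At the low end stood Melk, a mitotic kinase, at 21.5 and 13.8 TPM and Bard1, the partner of BRCA1, at 8.75 and 6.15 TPM. Both lay below the median of protein-coding genes at 1 TPM or more. Of the 40 targets 1 was past 2-fold higher and 4 past 2-fold lower in replicate 2, with a median log2 ratio of -0.22, where 20.4% of all genes tested, and 12.2% of protein-coding genes at 10 TPM or more, were past 2-fold. These were, named after their values were seen, Tk1 at 1.11, with 51.9% GC, and Hells at -1.63, Ccne2 at -1.40, Chek1 at -1.24 and Pola1 at -1.18, with 36.3% to 41.5% GC. Of 10 apoptosis targets 8 reached 1 TPM in both replicates, where 46.8% of protein-coding genes did, with a median of 10.6 TPM over the 10. Of the 8 with enough counts to be tested 1 was past 2-fold each way, where 20.4% of all genes tested were past 2-fold. These were Bbc3 at 1.42, with 65.2% GC, and Pmaip1 at -1.13, with 42.1% GC, also named after their values were seen. Cdkn2a, the locus of p16 and ARF, had 164 and 269 TPM in replicates 1 and 2, while Trp73, encoding p73, had 0.04 and 0.02 TPM and Hrk 0 counts.

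None of 7 germ line genes listed as silenced by E2F6 reached 1 TPM, and their median was 0.02 TPM. Of all protein-coding genes 46.8% reached 1 TPM in both replicates, and their median was 0.49 TPM. Whether E2F6 has a part in the low level of the 7 genes was not tested. Stag3, a meiotic cohesin subunit, had 0.06 and 0.05 TPM in replicates 1 and 2, Tuba3a 0.03 and 0.04 TPM, Tuba3b 0 and 0.05 TPM and Slc25a31 0.01 and 0 TPM, and Mael had 0 counts in both. Tuba3a and Tuba3b are near-identical copies, so the division of reads between them is uncertain.

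**Figure D5:**
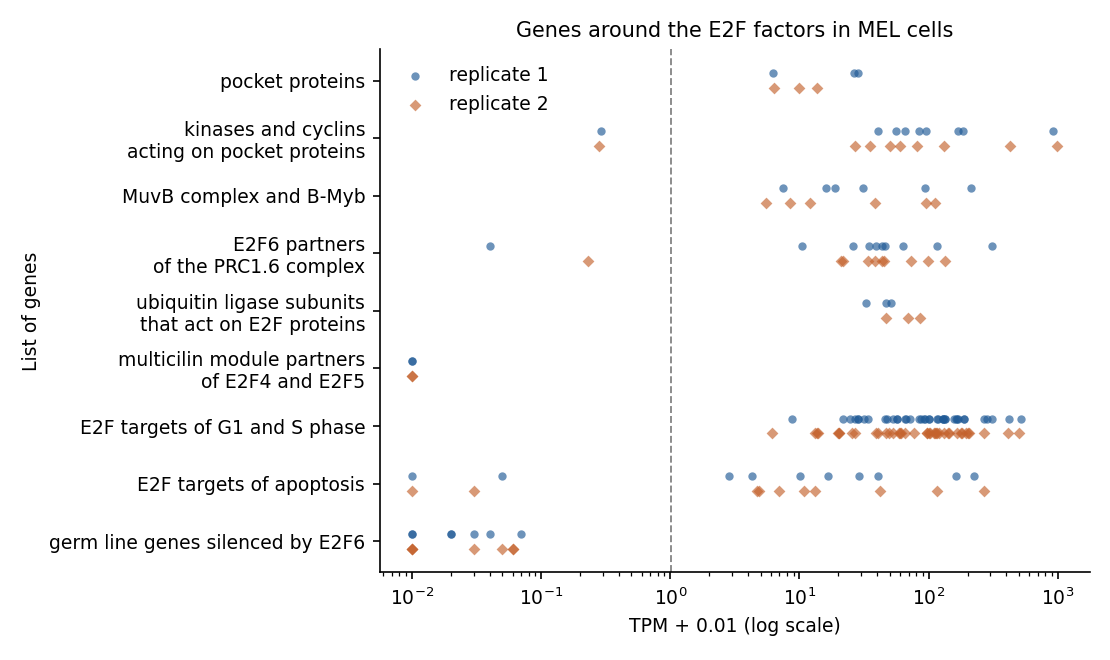
TPM of each gene in 9 lists of genes around the E2F factors, on a log axis with a small offset, with replicate 1 as circles, replicate 2 as diamonds and a dashed line at 1 TPM. The 40 targets of G1 and S phase lie to the right of the line in both replicates and the 7 germ line genes to its left.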

How the data were processed

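Expected counts, TPM, FPKM, transcript shares in percent and score columns (credibility bounds, posterior SD) were used or read as deposited by the authors. Reads were quantified on mm10 with GENCODE M4, per the file headers. The choice of aligner, of quantifier and of strand was not given in the sources used here. Symbols and positions came from GENCODE M21 by identifier without version (42462 of 43346 genes). A further 26345 features that are no genes of the annotation took 0.0574% and 0.131% of counts in replicates 1 and 2 and were left out.

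Members and lists were chosen with earlier results of these data known. Named genes are the members and, of each list, the 3 highest and 2 lowest by mean TPM, or every gene of lists of 3 or fewer, except that some genes this rule names are not reported here. Detection meant 1 TPM in both replicates, and ratios used TPM with 0.1 added. GC content, from GENCODE M21 transcripts, was known for 99.0% of the genes tested.

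Replicates were compared on expected counts rounded to whole numbers, for genes whose counts summed to 20 or more, with TMM library sizes in edgeR 4.0.16 and a prior count of 0.5; alternatives used DESeq2 1.42.0 size factors. With 1 library a side no quasi-likelihood test could be run. Steps were checked on simulated data. Software was R 4.3.3, Python 3.11.15, numpy 2.4.6, pandas 2.3.3 and matplotlib 3.10.9.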

Additional observations from a re-analysis of the deposited data

How the results depend on the processing

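All 10 members stayed at or above a TPM minimum of 0.5, and 9 at a minimum of 5. The log2 ratio of activators over repressors, -2.19, was -1.63 from expected counts, -2.33 from protein-coding transcripts, -2.87 without E2f3, -1.48 against E2f4 and E2f5, -0.76 against E2f6 to E2f8 and -0.84 without E2f4 (added after the data were seen), and it turned to 0.34 against E2f7 and E2f8. Without replicate 1 or 2 it was -2.14 or -2.23. The ratio of DP over E2F, 0.05, was -0.35 from expected counts and -0.39 or 0.49 without replicate 1 or 2.

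The number of pairs apart ran from 5 to 7. Of 90 alternative values for single pairs 81 kept their call and direction. The direction of pairs inside the limit turned for E2f1 over E2f2 from expected counts (-0.14) and for E2f1 over E2f3, 0.01, from expected counts (-0.31), from posterior mean TPM (-0.0025) and without replicate 2 (-0.34). E2f4 over E2f6 fell inside the limit from expected counts (1.29), without replicate 2 (0.84) and with the 99th percentile as limit (1.72), as did E2f7 over E2f8 from expected counts (-1.22) and with that limit. Of 54 values for lists 53 were kept, the exception being 5 apoptosis targets at a minimum of 5 TPM.

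The count of members past 2-fold, 0, was 1 (E2f4) with DESeq2 size factors, 1 (E2f4) with library totals, which moved the median of all genes to 0.14, and 2 (E2f1 and E2f4) at 1.5-fold. Over all genes 3114 of 15251 were past 2-fold, 3161 of 15251 with DESeq2 size factors and 3262 of 15251 with library totals. At 1.5-fold the count was 7669 of 15251. It was 1394 of 15102 after removal of the GC trend (added after the data were seen). With no count minimum it was 8182 of 43346, and among protein-coding genes 1901 of 11838. No paired analysis was possible because there is 1 group.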
